A study of Mus musculus with 474 samples.

Results

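The adult globin genes Hba-a1, Hba-a2, Hbb-bs and Hbb-bt and the erythroid haem synthesis gene Alas2 were followed across skeletal muscle libraries of Diversity Outbred (DO) mice. They were found by gene symbol in the deposited tables, which gave 5 genes of 20612, and all 5 were among the 18823 genes that passed the filter on low counts. DO mice are an outbred stock bred from 8 inbred founder strains, so animals differ from each other in genotype. Every animal had been fed a high-fat, high-sugar diet, given in the labels as 45percent fat, and was harvested at 22 weeks of age. There was no group on another diet and no other treatment or allele. One RNA-seq library was made from the muscle of each animal, which the study's methods name as gastrocnemius. Titles carry a sex and a number, 17, 18, 19, 21 or 23. That number is taken here to be the breeding generation, an assumption, because the generations listed in the study's text are fewer. In these generations there were 48, 45, 49, 46 and 47 animals labelled female and 46, 48, 50, 47 and 48 labelled male, and an animal with its library is the replicate.

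The total count per library ran from 35902446 to 165723762, with a median of 79308916. The summed level of 6 skeletal muscle markers, among them Ckm, Acta1 and Myh4, was between 106839 and 217582 CPM (counts scaled to a library total of 1000000) in every library, so the markers of the labelled tissue were abundant throughout. In 5 libraries Xist or Ddx3y lay outside fixed limits for the labelled sex. In 3 of these both genes were under 1 CPM, in the other two a gene just missed a limit while that of the labelled sex was high, and in none did both genes show the other sex. The labels were kept, and a call that is lost without those libraries is named as such. Library numbers in the titles, which break after the lowest 96, were cut here into 5 blocks of up to 96 consecutive numbers, with 91 to 96 libraries each. The cuts above the break were set for this work, and the labels name no batch.

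Haemoglobin is a tetramer of alpha and beta globin chains, each holding a haem group that binds oxygen. Hba-a1 and Hba-a2 encode adult alpha globin, and Hbb-bs and Hbb-bt encode adult beta globin. Alas2 encodes the erythroid form of 5-aminolevulinate synthase, the first and rate-limiting enzyme of haem synthesis in red cell precursors, while Alas1 serves other tissues. Mature mouse red cells have no nucleus, but reticulocytes in the blood still carry globin RNA, and muscle fibres store oxygen with another globin, myoglobin (Mb). In a bulk library, fewer cells of a type and less RNA per cell cannot be told apart.

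In the GRCm38 build with the GENCODE M21 annotation, Hba-a1 (ENSMUSG00000069919) lies at chr11:32283511-32284465 and Hba-a2 (ENSMUSG00000069917) at chr11:32296489-32297298, both on the plus strand, with starts 12.98 kb apart. Hbb-bs (ENSMUSG00000052305) lies at chr7:103826534-103828096 and Hbb-bt (ENSMUSG00000073940) at chr7:103812524-103813996, both on the minus strand, with starts 14.1 kb apart. Alas2 (ENSMUSG00000025270) lies at chrX:150547375-150570638 on the plus strand. Each globin gene has 3 coding exons. The alpha globin coding sequences were 99.8% identical and differed by C381T, written as the Hba-a1 base, the position from the A of the start codon, and the Hba-a2 base. The beta globin coding sequences were also 99.8% identical and differed by C417T, with the Hbb-bs base first. Both substitutions lie in exon 3, which is printed for the 4 genes because the ratios of these near-identical genes are among the measurements below. The capital marks the only base of the coding sequence that differs between the pair, and the coordinates are chr11:32284263-32284388 for Hba-a1, chr11:32297080-32297205 for Hba-a2, chr7:103826668-103826793 for Hbb-bs and chr7:103812659-103812784 for Hbb-bt.
Hba-a1 exon 3: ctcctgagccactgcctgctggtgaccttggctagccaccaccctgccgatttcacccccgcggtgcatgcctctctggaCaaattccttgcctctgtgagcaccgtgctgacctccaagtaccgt
Hba-a2 exon 3: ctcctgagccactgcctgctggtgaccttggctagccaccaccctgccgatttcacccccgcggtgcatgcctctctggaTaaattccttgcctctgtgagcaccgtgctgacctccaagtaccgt
Hbb-bs exon 3: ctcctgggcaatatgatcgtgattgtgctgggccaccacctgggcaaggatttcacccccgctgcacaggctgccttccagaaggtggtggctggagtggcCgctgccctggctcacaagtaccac
Hbb-bt exon 3: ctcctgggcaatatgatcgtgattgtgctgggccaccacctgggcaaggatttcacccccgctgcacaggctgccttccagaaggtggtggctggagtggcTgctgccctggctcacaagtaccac

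In this reference the coding sequences are so alike that telling the members of a pair apart rests on few bases and on the parts of the transcripts outside them. Of all 100-base windows of the annotated transcript, 43.5% of those of Hba-a1 and 25.5% of those of Hba-a2 were absent from the transcript of the other gene. The shares were 37.4% for Hbb-bs and 45.2% for Hbb-bt. The founder strains' versions of these genes, to which the authors aligned the reads, were not compared here. The deposited values are expected counts, in which the authors' method shares a read that fits several places among them, and the level of a single paralog is therefore less certain than the sum of its pair. No count of Hbb-bs or Hbb-bt was a whole number, to the sixth decimal, and 13.7% of those of Hba-a1 and of Hba-a2 were.

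The promoters of genes that moved together among animals are shown as RefSeq gives them in the GRCm38.p6 build, read on the gene's strand. Each stretch stops at the last base before the earliest start annotated for the gene in GENCODE, which can differ from the RefSeq start, and is at most 130 bases long, so that some motifs counted below fall outside the stretch printed. Capitals mark GATA, CACCC and CCAAT on either strand, the letters bound by the GATA, KLF and CCAAT-binding families of factors, and ATATAA on the gene's strand. The stretches are chr11:32296359-32296488 (+) for Hba-a2, chr7:103828097-103828178 (-) for Hbb-bs, chr7:103813997-103814126 (-) for Hbb-bt and chrX:150547245-150547374 (+) for Alas2.
Hba-a2 promoter: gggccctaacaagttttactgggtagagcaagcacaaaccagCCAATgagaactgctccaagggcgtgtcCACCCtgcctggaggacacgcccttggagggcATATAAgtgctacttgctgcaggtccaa
Hbb-bs promoter: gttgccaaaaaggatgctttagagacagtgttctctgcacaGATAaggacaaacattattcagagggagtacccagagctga
Hbb-bt promoter: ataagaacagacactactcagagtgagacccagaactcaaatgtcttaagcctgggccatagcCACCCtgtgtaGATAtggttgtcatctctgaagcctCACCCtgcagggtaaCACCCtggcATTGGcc
Alas2 promoter: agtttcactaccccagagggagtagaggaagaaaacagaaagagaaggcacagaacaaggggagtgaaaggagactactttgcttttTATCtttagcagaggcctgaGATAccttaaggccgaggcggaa
Over the whole window of 250 bases before the RefSeq start, GATA was present in all 5 members, against 53.6% of 32851 mouse promoters. CACCC was also present in all 5, against 52% of promoters. CCAAT was present in the 4 globin genes, against 33.8%, and ATATAA in the same 4, against 5.57%, lying 28 to 31 bases before the start. Neither CCAAT nor ATATAA was found in the window of Alas2. A match is a description of the letters and not of a bound site.

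Hba-a2 and Hbb-bs were the most abundant members and Hba-a1 was the least abundant in the median library. Per kilobase of annotated exon, the median level was 88.98 CPM for Hba-a2, 74.97 CPM for Hbb-bs, 10.5 CPM for Hbb-bt, 0.759 CPM for Alas2 and 0.262 CPM for Hba-a1. Hba-a2 was above Hbb-bs in 71.7% of libraries, and their middle ranges (from the 25th to the 75th percentile, 63.97 to 128.6 and 56.8 to 96.7 CPM per kilobase) overlapped. Hbb-bs was above Hbb-bt, and Hbb-bt above Alas2, in every library. Alas2 was above Hba-a1 in 64.8% of them, and the range of Hba-a1 covered that of Alas2 on both sides.

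The summed level of the 4 globin genes differed by 94.8-fold between animals, from 28.5 to 2699 CPM, with a median of 138.3 CPM. The highest library belonged to the animal labelled DO497, a female of generation 23, at 19.5 times the median. It was followed by DO250 (female, generation 19, 1214 CPM), DO510 (female, generation 23, 1058 CPM), DO310 (male, generation 19, 873 CPM) and DO195 (male, generation 18, 796 CPM). In the library of DO497, Alas2 was 34.3 times its median, Slc4a1, the band 3 anion exchanger of the red cell membrane, stood at 23.4 CPM against a median of 0.0551 CPM, and the neutrophil genes S100a8 and S100a9 at 13.3 and 21.04 CPM against 0.0530 and 0.0663 CPM. The summed levels of the neutrophil (47.9 against a median of 1.751 CPM), platelet (12.6 against 7.16 CPM) and endothelial marker lists (426.5 against 278.9 CPM) were also the highest of all libraries there. The summed lymphocyte markers were not (0.549 against 0.736 CPM), and Mb was at 2555 CPM against a median of 2004 CPM. The part of these markers in the results was not tested, and each result that rests on this library is given with and without it.

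The members were among the most variable genes of the tissue. The mean of each sex-by-generation group was removed from the deposited variance-stabilised (VST) values, which are close to log2 only at high counts. The SD among animals was then 2.27 for Hba-a1, 0.79 for Hba-a2, 0.75 for Hbb-bt, 0.65 for Hbb-bs and 0.48 for Alas2. The median over the genes tested was 0.20, and these SDs stood at percentiles 99.8, 98.2, 97.98, 97.1 and 93.8 of those genes. On log2 CPM with group means kept, the SD was 0.86 for Hba-a2, 0.97 for Hbb-bt, 0.71 for Hbb-bs and 0.83 for Alas2. Absolute deviations from the group median were compared between males and females with limma, and 0 of 5 members passed at an adjusted p under 0.05, where 5.37% of all genes did. At an unadjusted p under 0.05 there was 1, Hba-a2 (p = 0.0296), and the same test on log2 CPM also gave 0.

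**Figure D1:**
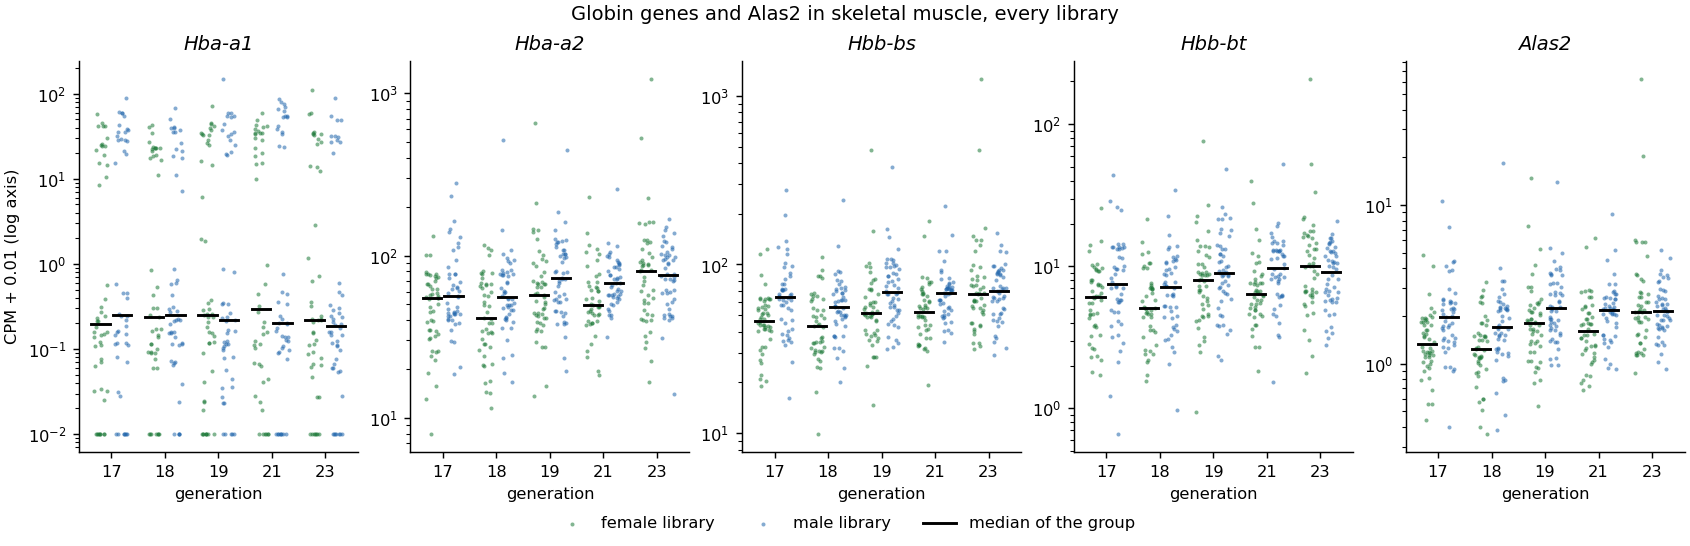
Level of each gene in CPM + 0.01 on a log axis by generation, with 1 point per library (green, female; blue, male) and a black bar at the median of each group. Hba-a1 forms 2 separate bands in every group, and the highest points of the other 4 genes belong to a female of generation 23.

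The first comparison asked whether males and females differed, with generation as a covariate. Alas2, Hbb-bs and Hba-a2 were slightly higher in males. Hbb-bs had a lowest, median and highest level of 9.86, 51.03 and 1260.1 CPM in females and of 16.1, 65.3 and 378.2 CPM in males. Hba-a2 had 7.92, 54.4 and 1229 CPM in females and 14.05, 65.5 and 519.3 CPM in males. Alas2 had 0.350, 1.55 and 62.6 CPM in females and 0.374, 2.08 and 18.5 CPM in males. The medians were higher in males for these 3 genes while the ranges overlapped almost throughout, and the highest single library was female. Hbb-bt had 0.938, 6.67 and 208.7 CPM in females and 0.649, 8.61 and 52.9 CPM in males. Hba-a1 had 0, 0.215 and 111.2 CPM in females and 0, 0.209 and 149.2 CPM in males, with medians nearly equal.

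By edgeR's quasi-likelihood test with Benjamini-Hochberg adjustment over 18823 genes, 3 of the 5 members were higher in males, and 0 were lower. Over all genes, 24.4% were called higher in males and 30.6% lower, so a sex call by itself does not set these genes apart. Genes called higher in males were 4595 of 10362 called, and with libraries scaled by total counts alone they were 3330 of 10799, with 1 member called, Hbb-bs at 0.17 (edgeR adjusted p = 0.0295). The log2 difference, male minus female, was 0.21 ± 0.071 (SE, adjusted p = 0.00841) for Hbb-bs, 0.21 ± 0.085 (adjusted p = 0.0251) for Alas2 and 0.19 ± 0.082 (adjusted p = 0.0426) for Hba-a2. Hbb-bt was at 0.15 ± 0.092 (adjusted p = 0.155) and Hba-a1 at 0.31 ± 0.30 (adjusted p = 0.402). The median log2 difference of the 5 members was 0.21, beside a median of -0.01 over all genes. Without the 5 libraries outside the limits for their sex Hba-a2 was no longer called (adjusted p = 0.0535). Without the library of DO497 the differences were larger and 4 of 5 members were called, with Hbb-bs at 0.28, Alas2 at 0.32, Hba-a2 at 0.26 and Hbb-bt at 0.24 (edgeR adjusted p = 3.35e-05, 9.21e-05, 0.00227 and 0.0111). With each pair of paralogs summed before the fit, the alpha globins were at 0.20 (adjusted p = 0.00910) and the beta globins at 0.20 (adjusted p = 0.0126).

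Within generations members were called higher in males in 3 of 5, with 4 members in generation 17 and 3 each in generations 18 and 21. Of all genes tested, 2027 of 16641, 1893 of 16648 and 2259 of 16613 were called higher in males in these generations. In generation 17 the log2 difference was 0.56 ± 0.14 (SE) for Hbb-bs and 0.64 ± 0.16 for Alas2 (edgeR adjusted p = 0.00102 and 0.00105). In generation 18 it was 0.38 ± 0.13 and 0.64 ± 0.18 (adjusted p = 0.0246 and 0.00429). In generation 19 the values were 0.30 ± 0.16 and 0.25 ± 0.17 (adjusted p = 0.165 and 0.328), and in generation 21 they were 0.32 ± 0.12 and 0.36 ± 0.14 (adjusted p = 0.0288 and 0.0479). Generation 23 went the other way, at -0.54 ± 0.19 for Hbb-bs and -0.82 ± 0.23 for Alas2 (adjusted p = 0.0270 and 0.00367). Without DO497, generation 23 was at -0.15 ± 0.14 for Hbb-bs and -0.29 ± 0.16 for Alas2 (adjusted p = 0.460 and 0.186). There 0 of 5 members were called by edgeR, also at an unadjusted p under 0.05, where 27.3% of all genes were called after adjustment. Within single library blocks, of 91 to 96 libraries, the difference for Hbb-bs was above 0 in all 5, from 0.08 to 0.38. In each block 0 or 1 members were called, where 19.4% to 28.6% of all genes were. Hba-a2 was at -0.028 in block 3 and -0.015 in block 4, and Alas2 at -0.045 in block 4, none of them called.

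**Figure D2:**
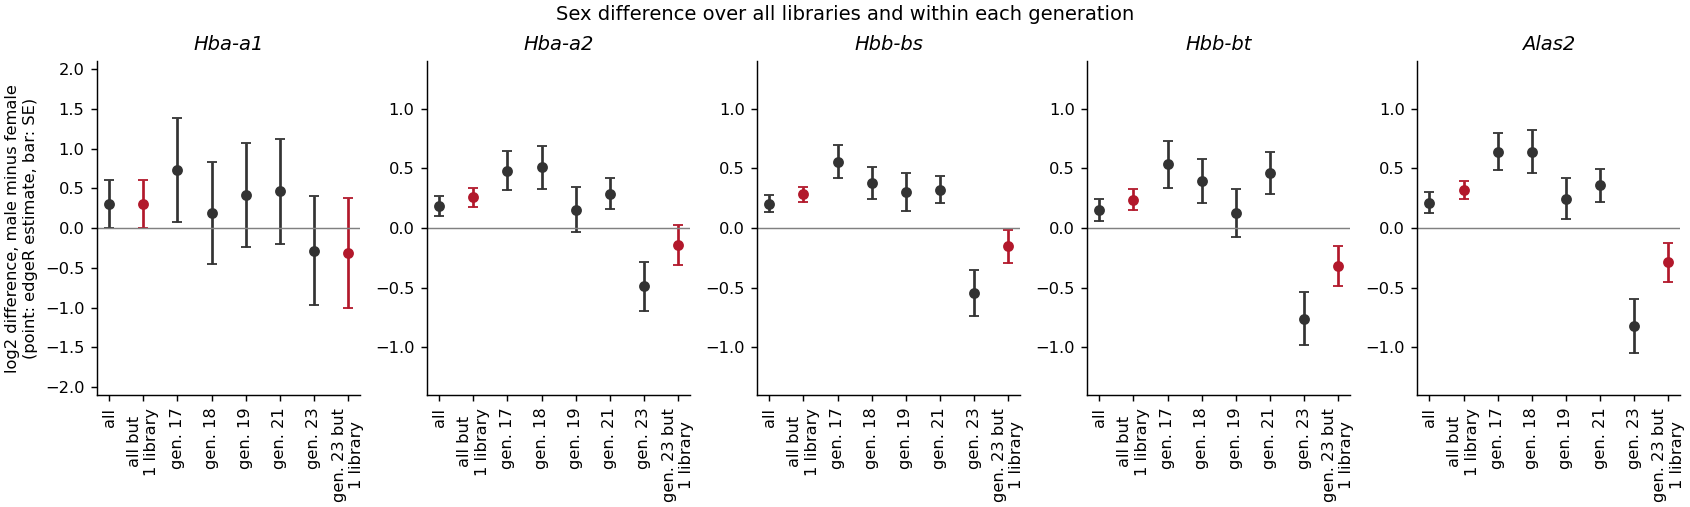
Log2 difference, male minus female, for each gene over all libraries, without the library with the highest globin level, within each generation, and within generation 23 without that library (fits that leave it out in red). Points are edgeR estimates and bars their SE; Hba-a2, Hbb-bs, Hbb-bt and Alas2 lie above 0 in generations 17 to 21 and below 0 in generation 23.

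The marker lists of other cell types were read in the same fit. All 7 lymphocyte markers tested were lower in males, with a median log2 difference of -1.85, and their summed level had a median of 0.738 CPM in females (0.166 to 231.4) and 0.703 CPM in males (0.122 to 84.8). Of 8 endothelial markers 7 were higher and 1 lower in males, with a median of 0.12 and summed medians of 273.6 CPM in females (204.9 to 426.5) and 285.6 CPM in males (221.5 to 411.2). The one that was lower was Vwf, at -0.22 (edgeR adjusted p = 5.22e-15), and the highest was Kdr, at 0.18 (edgeR adjusted p = 1.84e-08). Of 7 neutrophil markers 0 were higher and 1 was lower, with summed medians of 1.68 CPM in females (0.481 to 47.9) and 1.81 CPM in males (0.585 to 6.93). Of 4 platelet markers 1 was higher and 2 were lower, with summed medians of 7.29 CPM (4.32 to 12.6) and 7.02 CPM (3.58 to 10.7). Of 6 muscle markers 2 were higher and 3 lower. Their part in the sex difference of the members was not tested.

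The second comparison asked whether generations differed, with sex as a covariate. Apart from Hba-a1, the members were lowest in generation 18 and highest in generation 23. Hbb-bs had medians of 54.01, 50.1, 58.9, 60.2 and 67.4 CPM in generations 17, 18, 19, 21 and 23, with lowest values of 9.86 to 29.2 CPM and highest values of 223.1 to 1260.1 CPM. Hba-a2 had medians of 54.9, 51.03, 64.7, 60.2 and 76.7 CPM. Alas2 had medians of 1.63, 1.48, 1.90, 1.93 and 2.12 CPM. All 3 genes had their lowest median in generation 18 and their highest in generation 23, with ranges that overlapped between all generations. Hbb-bt had medians of 6.59, 6.13, 8.65, 7.63 and 9.83 CPM, and Hba-a1 of 0.214, 0.225, 0.226, 0.213 and 0.195 CPM.

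By edgeR's test 4 of the 5 members differed between generations, where 7.56% of all genes did. The range of the fitted log2 levels was 0.91 for Alas2 (adjusted p = 4.69e-09), 0.85 for Hbb-bt (adjusted p = 6.79e-06), 0.74 for Hbb-bs (adjusted p = 6.90e-08) and 0.73 for Hba-a2 (adjusted p = 9.59e-07). Hba-a1 had a range of 0.74 with an adjusted p of 0.822. Without DO497 the same 4 genes were called with smaller ranges, 0.59 for Alas2, 0.58 for Hbb-bt, 0.52 for Hbb-bs and 0.53 for Hba-a2 (edgeR adjusted p from 6.78e-05 to 0.00111). The difference was called among females and not among males, and the contrast of the sexes in this respect is the interaction described next. Among females the ranges were 1.58 for Alas2 and 1.16 for Hbb-bs (edgeR adjusted p = 2.33e-12 and 8.60e-09), and 1.04 and 0.77 without DO497 (adjusted p = 7.11e-07 and 0.000138). Among males they were 0.32 and 0.38 (adjusted p = 0.809 and 0.434), and 0 of 5 members were called by edgeR, also at an unadjusted p under 0.05. Of all genes tested, 2.81% were called within males and 2.85% within females. Of the marker lists, 4 of 7 neutrophil and 2 of 4 platelet markers also differed between generations, against 0 of 7 lymphocyte, 1 of 8 endothelial and 0 of 6 muscle markers. Without DO497 these were 2 of the 6 neutrophil markers then tested and 2 of 8 endothelial markers, and the other counts stayed as they were. Their part was not tested.

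Whether the sex difference itself varied between generations was tested by the interaction term. It was called for 3 of the 5 members, Alas2, Hbb-bs and Hbb-bt, where 0.531% of all genes were called. The interaction terms spanned 1.46 on the log2 scale for Alas2 (edgeR adjusted p = 1.11e-05), 1.10 for Hbb-bs (0.00141) and 1.30 for Hbb-bt (0.00465), and 1.00 for Hba-a2 (adjusted p = 0.0790). This rested on 1 library: without DO497, 0 of 5 members were called by edgeR (4 at an unadjusted p under 0.05), with Alas2 at 0.93 (adjusted p = 0.0648), Hbb-bs at 0.71 (0.450) and Hbb-bt at 0.85 (0.478). In generation 23 the mean level of Hbb-bs was 105.4 CPM in females and 72.3 CPM in males, while the medians were 66.5 and 69.7 CPM. For Alas2 the means were 4.09 and 2.31 CPM, and the medians 2.12 and 2.15 CPM. The means of generation 23 thus differed between the sexes far more than the medians did.

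Library blocks were compared with sex and generation as covariates. Hbb-bs was called (range 0.42, edgeR adjusted p = 0.0139), so that 1 of 5 members passed where 47.4% of all genes did. Alas2 was at 0.36 (adjusted p = 0.0531), Hbb-bt at 0.44 (0.0730), Hba-a2 at 0.26 (0.367) and Hba-a1 at 0.62 (0.755). The call for Hbb-bs also rested on DO497, being at 0.26 (adjusted p = 0.111) without it.

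The ratio of the alpha globin paralogs split the animals: Hba-a1 was near 0 in most of them and close to the level of Hba-a2 in the rest. The log2 ratio of Hba-a1 over Hba-a2, with 1 added to each count, ran from -13.61 to 1.15 and had a gap of 3.48 between -5.18 and -1.69, in which there was no library. The animals below the gap had a median Hba-a1 count of 8.76 and a median share of Hba-a1 among alpha globin counts of 0.137%. Above it lay 33.1% of all animals, with a median count of 2613 and a median share of 43.4%. The highest Hba-a1 count below the gap was 220.7 and the lowest above it was 407.6. In 69 libraries the expected count of Hba-a1 was under 1, while Hba-a2 was never under 100. These sides were defined from the values themselves and are described here with no comparison between them.

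Animals above the gap were found in every group. They made up 34.5% of females and 31.8% of males, 26.3% to 37.6% of the animals of a generation, 22.92% to 41.3% of the animals of the 10 groups, and 28.4% to 37.5% of a library block. The mean log2 ratio did not pass the test by sex (difference -0.21, permutation p = 0.622, adjusted p = 0.647), by generation (adjusted p = 0.486) or by block (adjusted p = 0.647), with p-values adjusted over 12 permutation tests of 4 ratios.

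**Figure D3:**
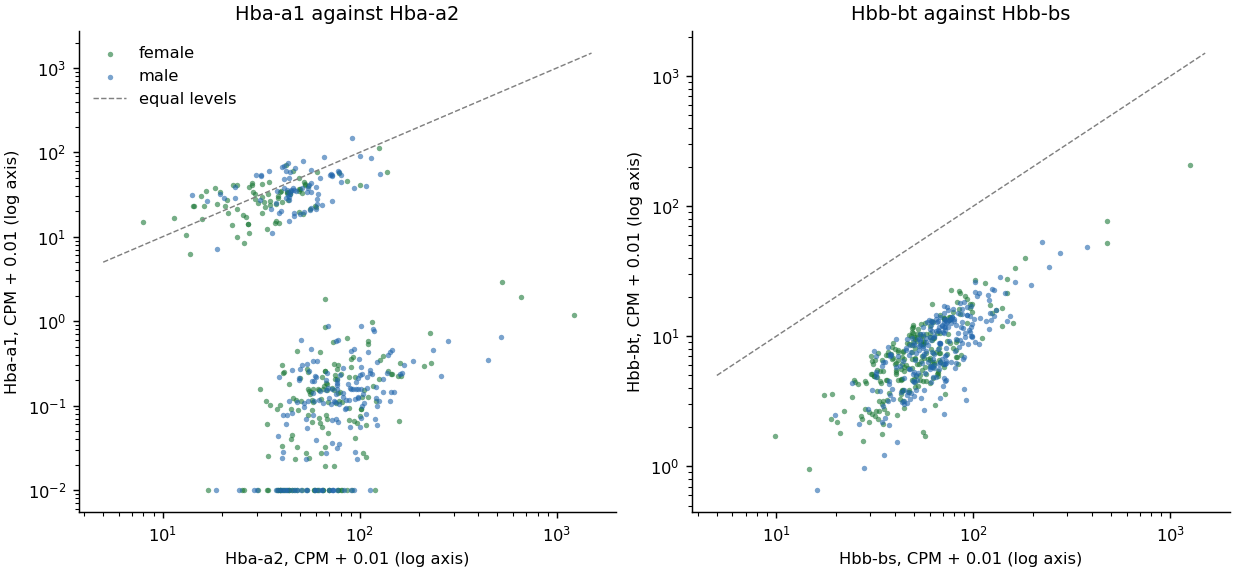
Level of Hba-a1 against Hba-a2 (left) and of Hbb-bt against Hbb-bs (right), in CPM + 0.01 on log axes, with 1 point per library coloured by sex and a dashed line at equal levels. For the alpha globins 33.1% of libraries lie in a band near equal levels and the others in a band far under it, and for the beta globins every library lies under the line.

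Hbb-bs was above Hbb-bt in every animal, by an amount that varied widely. Its share of beta globin counts ran from 77.5% to 97.1% with a median of 88.4%. The log2 ratio of Hbb-bs over Hbb-bt had a mean of 2.97 and an SD of 0.60, beside a median counting error of 0.06, which does not cover how expected counts were shared between the paralogs. Along this ratio 84 and 86 libraries lay in the intervals from 2.25 to 2.5 and from 2.5 to 2.75, 53 lay between 2.75 and 3.0, and 57, 55 and 58 lay in the 3 intervals from 3.0 to 3.75. There was no empty interval as for the alpha globins, the widest gap among the central values being 0.04. The mean was 2.94 in females and 3.003 in males, a difference of 0.07 (2-sided permutation p = 0.227, adjusted p = 0.389), and neither generation (adjusted p = 0.389) nor block (adjusted p = 0.579) passed the test.

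Alpha and beta globins kept close to each other across the whole range of levels. The SD of the log2 level among animals was 0.72 for the alpha sum and 0.72 for the beta sum, but 0.18 for their ratio. The alpha sum was 1.09 times the beta sum in the median library, and between 0.838 and 1.88 times at the extremes. This ratio differed between library blocks (permutation test of the F ratio, F = 29.4, p = 1e-05, the smallest that 100000 resamples can give, adjusted p = 0.00012), which took up 20.03% of its variance. As a difference of VST values, which weights Hba-a1 equally with Hba-a2, it did not pass (range 0.34, permutation adjusted p = 0.507). Block 1 had a mean log2 ratio of 0.30 ± 0.20 (SD, n = 96), against 0.12 ± 0.14 in block 2, 0.15 ± 0.17 in block 3, 0.07 ± 0.13 in block 4 and 0.11 ± 0.14 in block 5. Blocks held 43 to 54 females each. The ratio did not pass the test by sex (difference -0.03, permutation p = 0.104, adjusted p = 0.311) or by generation (range 0.07, permutation p = 0.0365, adjusted p = 0.146).

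Alas2 also followed the globins. There were 75.4 globin counts for each Alas2 count in the median library, and 43.1 to 143.1 at the extremes. The log2 ratio of Alas2 over the summed globins had a mean of -6.25 and an SD of 0.29, with a median counting error of 0.12. It differed between generations by 0.13 at most (permutation p = 0.00677, adjusted p = 0.0406), from -6.32 in generation 18 to -6.19 in generation 23, but not past the threshold without DO497 (range 0.12, permutation adjusted p = 0.0605). It did not pass by sex (difference 0.04, permutation p = 0.164, adjusted p = 0.389) or by block (adjusted p = 0.532).

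**Figure D4:**
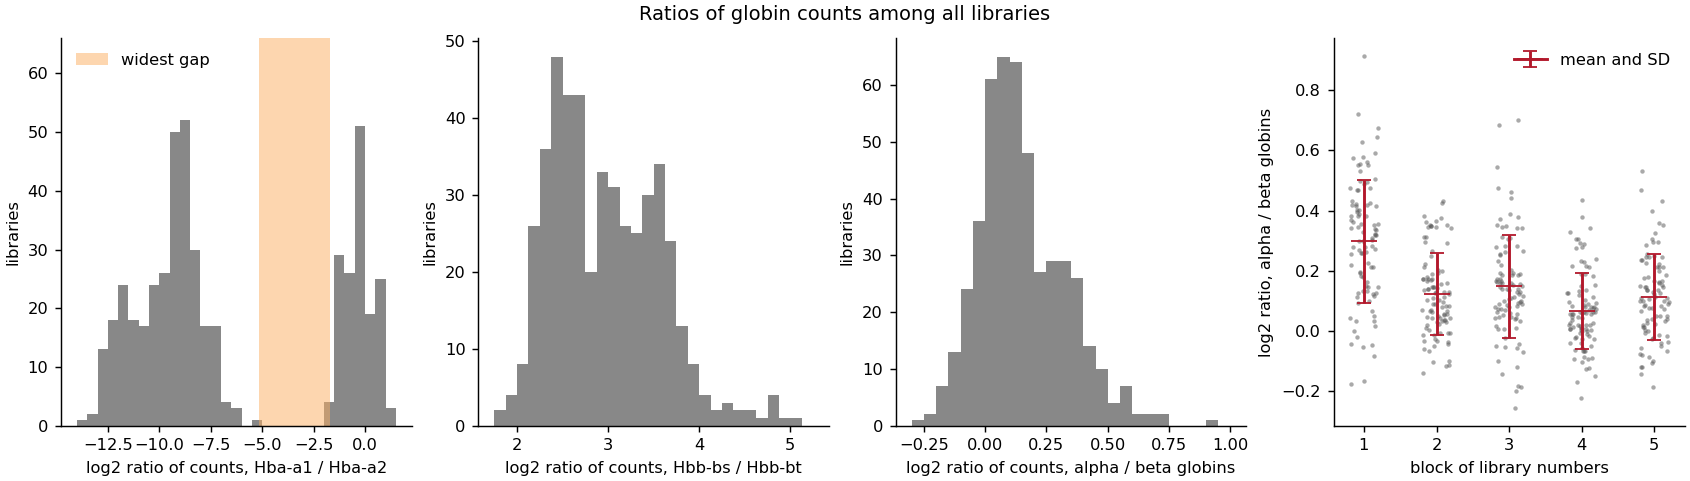
Histograms of the log2 ratios of counts over all libraries for Hba-a1 over Hba-a2 (the widest gap shaded), Hbb-bs over Hbb-bt and alpha over beta globins, and the alpha over beta ratio by block of library numbers with mean and SD. The first ratio has 2 separate groups of libraries, the second is broad, the third is narrow, and block 1 has the highest mean, 0.30.

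Among animals of the same sex and generation, the members rose and fell together. With VST values and group means removed, Pearson's r over all animals was 0.92 for Hbb-bs with Alas2 (Spearman's rho 0.88), 0.82 for Hba-a2 with Hbb-bs (0.77), 0.79 for Hbb-bs with Hbb-bt (0.71), 0.79 for Hbb-bt with Alas2 (0.73), 0.78 for Hba-a2 with Alas2 (0.71) and 0.70 for Hba-a2 with Hbb-bt (0.62). The permutation p of each r was 1e-05, the smallest that 100000 resamples can give, and 1e-05 after adjustment over 14 correlations; those of rho were 1.08e-05 after adjustment. Without the 2 animals farthest from the median of the first gene, r was between 0.67 and 0.91. Within single library blocks r stayed between 0.62 and 0.94. Hbb-bs and Hbb-bt are neighbours on a chromosome, and Alas2 lies on another. The values of Hba-a2 pool both sides of the gap in the ratio of the alpha globins, and for Hba-a2 with Hbb-bs those on either side are given next. All genes of an animal share its library and depth.

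For Hba-a1 no value over all animals is given because of the gap. Above the gap its r was 0.66 with Hbb-bs (rho 0.62), 0.60 with Alas2 (0.56), 0.54 with Hbb-bt (0.50) and 0.38 with Hba-a2 (0.32). Below it r was 0.46 with Hbb-bs (rho 0.40), 0.46 with Alas2 (0.40), 0.39 with Hbb-bt (0.36) and 0.47 with Hba-a2 (0.41). These 8 values are a description with no test, because the sides were cut from the ratio of Hba-a1 over Hba-a2, which bounds the level of one by the other within a side. Without the 2 farthest animals these r were between 0.34 and 0.62. For Hba-a2 with Hbb-bs, r was 0.89 above the gap and 0.97 below it.

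The 5 genes outside the members with the VST values most like them were the same for Hba-a2, Hbb-bs, Hbb-bt and Alas2, as a description over all animals, whose genes share a library. Among these were Slc4a1, Ube2l6 (the conjugating enzyme for the ubiquitin-like protein ISG15) and Isg20 (an interferon-induced exonuclease). With Alas2 their r was 0.73, 0.53 and 0.47 (rho 0.58, 0.32 and 0.28), and without the 2 farthest animals 0.66, 0.43 and 0.37. With Hba-a2 the values were lower, 0.55 for Slc4a1 and 0.35 for Isg20. Spearman's rho was below Pearson's r for each of these pairs.

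The ratio of Hbb-bs over Hbb-bt had another set of most similar genes, and these lay beside the beta globin locus. The 5 nearest in pattern were Gm15635 (r = -0.50, rho -0.53, chr7:99660130-99667500), Trim68 (0.50, 0.54, chr7:102677582-102687327), Chrna10 (0.50, 0.55, chr7:102111266-102116828), Tpp1 (0.49, 0.55, chr7:105744811-105752235) and Gm8989 (-0.45, -0.47, chr7:106323414-106330688), in GRCm38. Chrna10 encodes a subunit of nicotinic acetylcholine receptors and Tpp1 a lysosomal peptidase. All 20 of the genes with the highest absolute r lay within 10 Mb of Hbb-bs, a window that holds 0.994% of the 18818 other genes tested. Over 17306 genes on other chromosomes the median absolute r was 0.03 and the highest was 0.21. For the levels themselves the corresponding count within 10 Mb of the gene was 10 of 20 for Hba-a1, 6 of 20 for Hbb-bt, and 0 of 20 for Hbb-bs, Hba-a2 and Alas2. For the ratio of Hba-a1 over Hba-a2, 11 of the 20 most similar genes lay within 10 Mb, a window with 0.457% of the genes. Among these were Erlec1, Mpg, Gpr75, D630024D03Rik and Ccdc85a, 5 in number. The rankings for Hba-a1 and for this ratio pooled the animals on both sides of the gap. Within either side of the gap the r of these 5 was between -0.24 and 0.16. Over all genes in that window r ran from -0.41 (Mtif2) to 0.44 (Stk10) above the gap, and below it Stk10 was at 0.14. Genotypes were not used here.

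**Figure D5:**
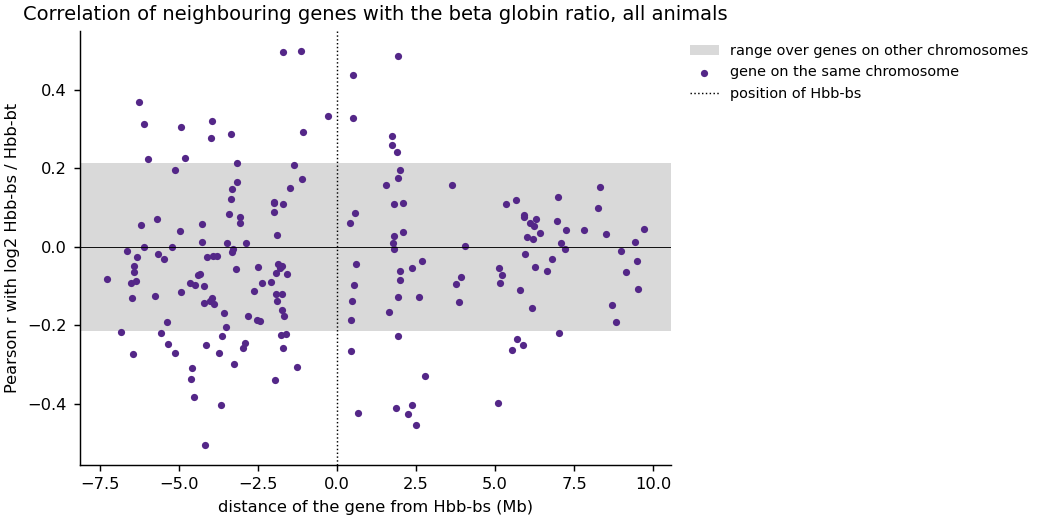
Pearson r of each tested gene within 10 Mb of Hbb-bs with the log2 ratio of Hbb-bs over Hbb-bt over all animals, against its distance from Hbb-bs in megabases, with a grey band for the range over genes on other chromosomes. Values reach 0.50 and -0.50 near the locus, beyond the band of 0.21.

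Other genes of the red cell and haem pathways were read from lists, and their values stand beside those of the members. Of 12 haem synthesis genes besides Alas2, 2 were higher and 7 lower in males and 0 differed between generations by edgeR. Alas1, the enzyme form of other tissues, was higher in males by 0.27 ± 0.020 (SE, adjusted p = 5.01e-34), as was Fech, which inserts iron into haem, by 0.05 ± 0.011 (adjusted p = 5.55e-06). Uros was lower, at -0.19 ± 0.037 (adjusted p = 1.63e-06). The r of these 12 genes with Hbb-bs ran from -0.09 to 0.16. Their summed level was 327.1 to 489.5 CPM, and such genes are also used by cells outside the red cell line.

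Of 10 red cell membrane and skeleton genes tested, 1 was higher and 5 were lower in males, and 3 differed between generations. Slc4a1 had a mean of 0.244 CPM in females and 0.109 CPM in males, with a log2 difference of -0.16 ± 0.23 (edgeR adjusted p = 0.570). Without DO497 the female mean was 0.145 CPM and the log2 difference 0.0060 (edgeR adjusted p = 0.972). It had a range of 2.53 between generations (adjusted p = 4.42e-13), or 1.58 without DO497 (adjusted p = 6.38e-05). Gypc, glycophorin C, which other cells also make, was higher in males by 0.70 ± 0.022 (adjusted p = 5.51e-117). The r of the list with Hbb-bs had a median of -0.02 and a highest value of 0.66, that of Slc4a1. Epb42, Rhag and Kel were not analysed here.

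Of 8 erythroid regulators, 2 were higher and 4 lower in males and 0 differed between generations, with r with Hbb-bs from -0.04 to 0.17. Klf1, the erythroid Krüppel-like factor, was at mean levels of 0.0616 CPM in females and 0.0376 CPM in males, lower in males, at -0.68 ± 0.15 (edgeR adjusted p = 1.36e-05). Its mean VST stood at percentile 1.62 of the genes tested, so the difference rests on few counts. Bcl11a, a repressor of fetal globin genes that lymphocytes also express, was lower, at -1.55 ± 0.24 (adjusted p = 2.43e-09). Gata1 was in the table but under the filter. Of 12 late erythroid genes 2 were higher and 2 lower in males and 2 differed between generations (1 without DO497), among them Tent5c with a range of 0.46 (adjusted p = 0.000563). Tfrc, the transferrin receptor, was higher in males by 0.22 ± 0.048 (adjusted p = 2.49e-05). Car1, a carbonic anhydrase, was lower, at -0.61 ± 0.12 (adjusted p = 2.68e-06), with low means of 0.186 CPM in females and 0.122 CPM in males. Ahsp, the alpha globin chaperone, was not analysed here.

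Of 12 haem and iron handling genes, 7 were higher and 3 lower in males and 4 differed between generations. Haptoglobin (Hp), which binds free haemoglobin, was higher in males by 0.61 ± 0.094 (SE, edgeR adjusted p = 1.56e-09) with a range of 0.52 between generations (adjusted p = 0.0286). Hmox1, which breaks haem down, was higher by 0.08 ± 0.035 (adjusted p = 0.0375). Hpx, which binds free haem, reached 46.4 CPM in DO022, a female of generation 17, against 1.597 CPM in the next library, and its calls (-0.62 ± 0.20 by sex, adjusted p = 0.00526, and a range of 3.39 between generations, adjusted p = 2.24e-33) were read with that library in them. Of 3 other globins tested, myoglobin (Mb) was higher in males by 0.18 ± 0.030 (adjusted p = 4.05e-08), with means of 2178 and 1928 CPM, and cytoglobin (Cygb) was lower, at -0.14 ± 0.023 (adjusted p = 9.61e-09). Neither was called between generations. The embryonic globins Hba-x, Hbb-bh1 and Hbb-y were not analysed here.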

How the data were processed

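There were 474 libraries (235 female, 239 male). The authors aligned both mates of each pair as single reads against founder transcriptomes (GRCm38) and obtained expected counts with EMASE in GBRS. The deposited expected counts are not normalised, and 68.6% are whole to the sixth decimal. The authors also deposited a score, the DESeq2 variance-stabilising transform (VST) of the counts. Software versions and the use of strand are not given in the sources used here. Columns were matched to animals by name, also where the column order differs from the sample list (DO048 with DO308, DO309 with DO310).

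Counts were rounded and fitted in R 4.3.3 with edgeR 4.0.16 (filterByExpr, minimum count 10, which removed 1789 genes; TMM factors 0.871 to 1.29; quasi-likelihood F-test; Benjamini-Hochberg over 18823 genes, threshold 0.05). The SE of an edgeR difference was derived from the test, as its absolute log2 value over the square root of F. The code was tested on simulated data. CPM use the TMM-scaled total. Sex was tested with generation as covariate and the reverse; wave, a covariate of the study, is not in the labels. Spread was tested with limma 3.58.1. Ratios took rounded counts plus 1, with permutation tests of 100000 resamples in Python 3.11.15 (numpy 2.4.6). Below the gap in the ratio of Hba-a1 to Hba-a2 lay 317 animals and above it 157. The 5 members, the gene lists and the tests were chosen with earlier results of these data known. Named genes were the members, listed pathway genes, the 2 largest sex and 2 largest generation calls per list, and the 5 most similar genes per member and ratio, of which some are not reported here. Alternatives were other normalisations and filters, limma on VST, DESeq2 1.42.0, pseudocounts, single sexes, generations and blocks, and fits without the 5 libraries outside the Xist and Ddx3y limits for their labelled sex (Xist at least 50 CPM in females and at most 10 in males, Ddx3y at most 0.1 in females and at least 10 in males). Fits with summed paralogs, without DO497, without generation 23 and on either side of the gap were chosen after seeing the data. Each animal has a number of its own, so animals are separate and unpaired.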

Additional observations from a re-analysis of the deposited data

Results flagged for a closer look

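For 7 named genes the sex difference itself differed between generations by the edgeR interaction test, with a span of the interaction terms of 1.46 for Alas2, 1.10 for Hbb-bs, 1.30 for Hbb-bt, 4.72 for Slc4a1, 3.17 for S100a8, 3.62 for S100a9 and 3.81 for Hpx on the log2 scale. For 6 of them the highest library was that of DO497 (female, generation 23). In that generation Slc4a1 had a mean of 0.885 CPM in females and 0.0784 CPM in males, S100a8 of 0.638 and 0.111 CPM, and S100a9 of 0.867 and 0.135 CPM. Without that library Slc4a1 was at 3.55 (edgeR adjusted p = 9.01e-06), S100a8 at 2.36 (0.0312) and S100a9 at 2.60 (0.0524), and the values of the globins and Alas2 are given above.

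Hpx had its highest level, 46.4 CPM, in DO022, a female of generation 17, where the mean was 1.05 CPM in females and 0.0938 CPM in males; its median over all libraries was 0.0473 CPM. By limma on the VST values 0 of these 7 genes and 0 of all 18823 genes were called (869 of all at an unadjusted p under 0.05), and the adjusted p was 0.846 for Slc4a1 and 0.913 for Alas2.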

How the results depend on the processing

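Over all alternatives, 5 values that answer a comparison fell short of the threshold, 2 passed it and 19 moved. Of single-gene values 40 fell short, 7 passed and 10 that were called in either fit changed sign, and the others kept their call. Members called for sex fell from 3 to 1 with total counts alone (2 at an unadjusted p under 0.05), to 1 within block 1 (3 unadjusted) and block 2 (4), and to 0 within blocks 3, 4 and 5 and generation 19 (0 unadjusted each, edgeR). Total counts alone also moved the genes called higher in males from 4595 of 10362 to 3330 of 10799. Within generation 23 the sex difference had the opposite sign for Hba-a2 (-0.49), Hbb-bs (-0.54), Hbb-bt (-0.76), Alas2 (-0.82) and Hba-a1 (-0.29), and without DO497 for Hba-a2 (-0.15), Hbb-bs (-0.15), Hbb-bt (-0.32), Alas2 (-0.29) and Hba-a1 (-0.31), with 0 called. Within block 3 Hba-a2 was at -0.028, and within block 4 Hba-a2 was at -0.015 and Alas2 at -0.045. Without the libraries outside the limits for their sex Hba-a2 lost its call (adjusted p = 0.0535), and limma on VST added Hbb-bt (0.0172). Generation calls fell from 4 to 0 within males. Interaction calls fell from 3 to 0 without DO497 and by limma on VST (4 and 3 unadjusted). Block calls went from 1 to 3 with total counts alone, 2 with a minimum count of 50, and 0 without DO497 or by limma on VST (0 unadjusted).

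The range of Alas2 over globins by generation was 0.086 with a pseudocount of 10, 0.15 as a VST difference, 0.12 without DO497 and 0.077 within males, all short of the threshold. Alpha over beta globins by block was 0.34 as a VST difference (adjusted p = 0.507), which weights Hba-a1 equally with Hba-a2; it passed by sex within generation 19 (-0.086, adjusted p = 0.0471) and by generation within females (0.10, adjusted p = 0.0316), by permutation tests. The r of Hba-a1 with Hba-a2 above the gap was 0.28 within males, and those of Hba-a2 below the gap were 0.97 with Hbb-bs, 0.83 with Hbb-bt and 0.92 with Alas2. The causes were not tested. Genes called over the whole table were 3698 to 5381 for sex within single blocks, 3859 to 4614 within generations, 2.85% and 2.81% of those tested for generation within females and males (1423, or 7.56%, over all), and 55 with a minimum count of 50 and 0 by limma on VST (869 unadjusted) for the interaction (100 over all). No paired analysis was possible because every animal has a number of its own. With a median of 8.76 counts below the gap, differences of Hba-a1 rest on few counts.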
